A study of Danio rerio with 3 samples.

Results

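Hemoglobin, the oxygen carrier of red blood cells, is a tetramer of alpha and beta globin chains, each holding a heme group. Zebrafish carry families of alpha and beta globin genes, of which those with an "e" in the symbol (*hbae*, *hbbe*) are used in the red cells of the embryo and those with an "a" (*hbaa*, *hbba*) in the red cells of the adult. The copies of a family arose by gene duplication and can be nearly identical in sequence, so a short sequencing read may fit more than 1 of them. The globin genes described here are the genes whose symbol in the deposited tables starts with *hbae*, *hbbe*, *hbaa* or *hbba* followed by a digit. They number 9 of the 31950 genes measured, 4 alpha and 5 beta, and their symbols are 8 embryonic ones and 1 adult one, *hbaa1*.

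RNA was sequenced from whole zebrafish embryos in 1 library per condition: HNE Z-REX, HDE Z-REX and non-treated. All embryos had been injected at the earliest cleavage stages with about 2 nl of mRNA for the fusion protein Halo-TEV-Keap1, and the study's supplement gives their line as *Tg(lyz:TagRFP)*, in which the *lyz* promoter drives a red fluorescent protein in neutrophils. Keap1 is the sensor of electrophiles that holds the transcription factor Nrf2 in check, and in Z-REX a photocaged precursor docks on the Halo domain so that light sets the electrophile free next to Keap1. HNE is 4-hydroxynonenal, and HDE is 4-hydroxydodecenal, an aldehyde of the same kind with a longer carbon chain. For the HNE precursor the protocol gives 1 μM, 30 h in the dark, 365 nm light at 0.5 mW per cm2 for 3 min and RNA isolation 1.5 h later, and a dose of the HDE precursor is not given in the sources used here. The third library is labelled non-treated, and with no library for precursor or light alone, the effects of precursor, light and released electrophile cannot be told apart. The labels also write the Keap protein of the 3 libraries as Keap1, Keap2 and Keap3, while the protocol says Keap1 for all. How many embryos went into a library is not given in the sources used here.

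With 1 library per condition, no difference below has a replicate check, and no p-value was computed. Ratios are of counts scaled by the TMM method, which sets library scaling from the bulk of the genes, and intervals are 95% intervals that cover counting error only. A gene is called lower or higher when its scaled counts differ by at least 1.5-fold. The libraries held 17704410 counts after HNE, 15084294 after HDE and 17996111 without treatment. As RNA came from whole embryos, fewer red cells and less globin RNA per cell cannot be told apart.

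The level of the globin genes can be compared between genes as FPKM, a level scaled for transcript length and sequencing depth. The alpha gene *hbae3* (ENSDARG00000079305) was at the top with 1424 FPKM after HNE, 1538 FPKM after HDE and 2125 FPKM without treatment. The beta gene *hbbe3* (ENSDARG00000038147) came next with 1010, 949 and 1209 FPKM in the same libraries. The 3 genes of the *hbbe1* group followed, with 476 to 682 FPKM after HNE, 556 to 797 FPKM after HDE and 851 to 1119 FPKM without treatment. All 5 of these genes had a mean above 1000 counts, and *hbae3* ranked 195 among all genes by mean count.

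The other members were lower. The *hbae1* genes had 139 and 101 FPKM after HNE (ENSDARG00000089475 and ENSDARG00000089124, in that order), 152 and 112 FPKM after HDE, and 239 and 120 FPKM without treatment. The beta gene *hbbe2* (ENSDARG00000045143) had 41.5, 36.1 and 50.1 FPKM after HNE, after HDE and without treatment. The order of the 9 genes by FPKM was the same in each of the 3 libraries.

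The adult alpha chain gene *hbaa1* (ENSDARG00000097011) stood at the bottom with 6 counts after HNE, 5 after HDE and 16 without treatment. Its ratio was 0.379 after HNE (0.121 to 1.02) and 0.357 after HDE (0.102 to 1.02), with intervals that both include 1. With a mean of 9 counts it was the 1 member below the limit of a mean of 10 counts that was set for calls. Adult chain genes that the files list under older symbols were also at a few counts: *ba1* had 1, 2 and 2 counts, *ba1l* 4, 13 and 5 and *si:ch211-5k11.6*, now *hbaa2*, 0, 1 and 0 after HNE, after HDE and without treatment. The label of embryonic globin genes thus fits 8 members by their symbols and levels, while *hbaa1* carries an adult symbol and was near the counting floor.

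**Figure D1:**
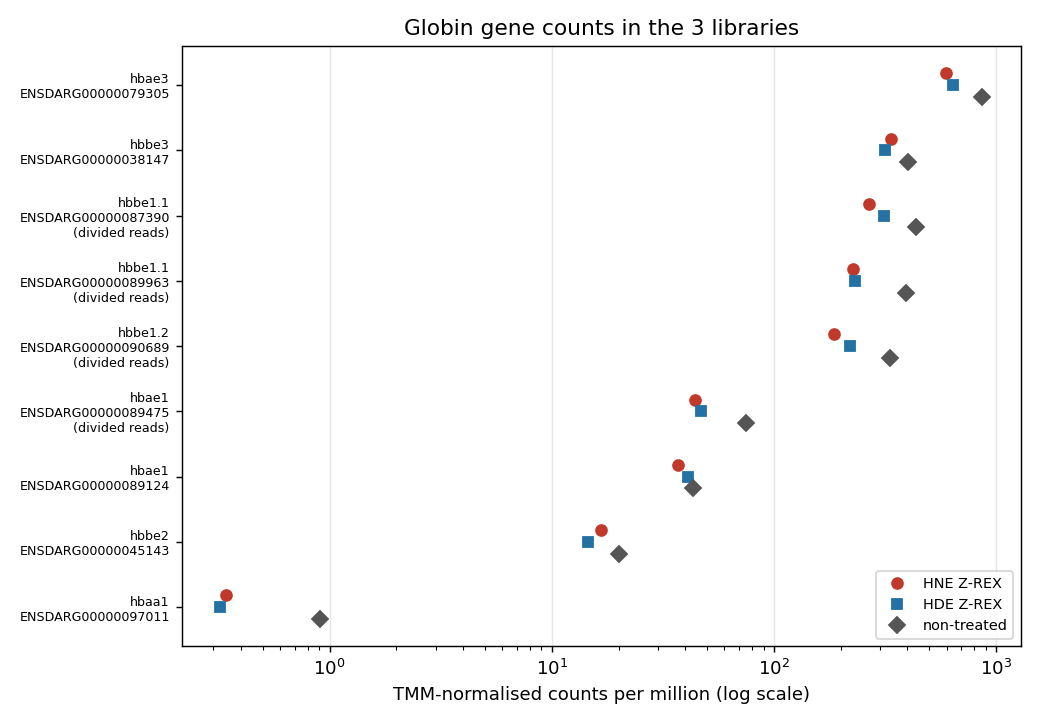
TMM-normalised counts per 1000000 counts (log scale, not corrected for gene length) of the 9 globin genes in the HNE Z-REX, HDE Z-REX and non-treated libraries, 1 point per library and no error bars because there are no replicates. The non-treated point lies to the right of both Z-REX points in each of the 9 rows, by the least in *hbae1* ENSDARG00000089124.

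The deposited counts are whole numbers for 5 of the members and fractional for 4, and this difference bears on every ratio below. Fractional values can arise where reads that fit several genes are divided between them. They are read that way below from the values alone, as no reads were examined. Across the whole table, 939 genes had a fractional count in at least 1 library. The members with whole counts were *hbae3*, *hbbe3*, *hbbe2*, *hbaa1* and *hbae1* ENSDARG00000089124. The members with fractional counts were the *hbbe1* genes and *hbae1* ENSDARG00000089475.

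The 3 *hbbe1* genes complete each other. The *hbbe1.1* gene ENSDARG00000087390 had 4687.87 counts after HNE, 4863.77 after HDE and 7742.49 without treatment. The second gene named *hbbe1.1*, ENSDARG00000089963, had 3969.59, 3598.3 and 6979.86 counts in these libraries, and *hbbe1.2* (ENSDARG00000090689) had 3278.54, 3403.93 and 5902.65. Their sum was exactly whole in each library, namely 11936, 11866 and 20625 counts. A division of reads among these genes, with no part of a read left over, would give such sums.

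The *hbae1* gene ENSDARG00000089475 had 777.652 counts after HNE, 730.074 after HDE and 1331.83 without treatment. Of 938 other genes with fractional counts, 1 completed it to whole numbers in all 3 libraries, the gene *si:ch211-5k11.2* (ENSDARG00000088330), whose current symbol is *hbae1.2*. That gene is an embryonic alpha chain which the choice by symbol misses. The pair summed to 2975, 3027 and 4168 counts, within 0.002, 0.004 and 0 counts of a whole number. The same search paired *hbbe1.1* ENSDARG00000089963 with the keratin gene *cyt1*, whose deposited values keep fewer decimals, and found no single partner for the remaining *hbbe1* genes.

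In the RefSeq gene table (GRCz12tu, used for names and gene order only), *hbae1.1*, *hbae1.2* and *hbae1.3* alternate with *hbbe1.1*, *hbbe1.2* and *hbbe1.3*, next to *hbae3* and the adult genes, in a run of 13 globin genes with no other gene between them. The genes *hbbe3* and *hbbe2* lie in another group, between *hbae4* and *hbae5*, with 2 other genes in the span. The members that share reads are thus all named after genes of the first run.

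The sum over all 9 members does not depend on how reads were divided among the *hbbe1* genes. Of the divisions described above, that with *si:ch211-5k11.2* can move it. Reads dropped or given whole to 1 gene would not show in these counts. The sum was 29959 counts after HNE, 28376 after HDE and 45583 without treatment. As a share of all counts these are 0.169% (exact Clopper-Pearson interval 0.167 to 0.171), 0.188% (0.186 to 0.190) and 0.253% (0.251 to 0.256), so both Z-REX libraries held a smaller globin share than the non-treated one. The ratio of the sum was 0.664 after HNE (0.654 to 0.673) and 0.710 after HDE (0.70 to 0.721), both against non-treated. Both ratios are taken against the same non-treated library and so share its error.

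Split by the kind of count, members with whole counts summed to 17245 after HNE, 15780 after HDE and 23626 without treatment. Their ratios were 0.737 (0.723 to 0.752) for HNE and 0.762 (0.747 to 0.778) for HDE. Members with fractional counts summed to 12714, 12596 and 21957, with ratios of 0.585 (0.572 to 0.598) and 0.654 (0.640 to 0.669). Globin counts were therefore lower in both Z-REX libraries with either set, and the ratio lay further below 1 in the members whose reads were divided.

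After HNE, 4 of the 8 members that passed the limit of 10 counts were at least 1.5-fold lower than in the non-treated library, and none was higher. Of all 18563 genes tested, 4.26% were at least 1.5-fold lower. Among genes averaging 1000 counts or more the share was 0.629%, and 3 of the 5 globin genes in that class were called. The median log2 ratio of the 8 members was -0.63, with a range of -0.83 to -0.23, beside a median of 0.0037 over all genes tested. Members that share reads are not separate values. The median was -0.26 with whole-count members alone. It was -0.37 with genes that share reads taken as 1 unit, an alternative chosen after seeing the data. All 8 had a log2 ratio below 0, as did 49.4% of the genes tested.

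The 4 called members were the 4 with divided reads. The ratio after HNE was 0.561 (0.537 to 0.585) for *hbbe1.2*, 0.574 (0.552 to 0.597) for *hbbe1.1* ENSDARG00000089963, 0.611 (0.590 to 0.634) for *hbbe1.1* ENSDARG00000087390 and 0.590 (0.539 to 0.645) for *hbae1* ENSDARG00000089475. As a sum, the *hbbe1* genes had a ratio of 0.584 (0.571 to 0.598), which passes the 1.5-fold limit whatever the division. The pair of *hbae1* ENSDARG00000089475 and *si:ch211-5k11.2* had a ratio of 0.721 (0.687 to 0.756), which does not. With genes that share reads taken as 1 unit, an alternative chosen after seeing the data, 1 unit was called, the *hbbe1* sum.

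Among the members with whole counts, *hbae3* had 10405 counts after HNE against 15385 without treatment, a ratio of 0.683 (0.666 to 0.70), just short of 1.5-fold. The interval of *hbae3* includes the 1.5-fold limit. For *hbbe3* the counts were 5896 against 7103 and the ratio 0.838 (0.809 to 0.868). The *hbbe2* counts were 291 against 354, with a ratio of 0.830 (0.708 to 0.972). The *hbae1* gene ENSDARG00000089124, now *hbae1.3*, had 647 against 768 counts and a ratio of 0.851 (0.765 to 0.946). None of these 4 intervals includes 1, and none of the 4 genes was called.

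After HDE, 3 of the 8 members were at least 1.5-fold lower than without treatment, and none was higher. The share of all genes tested was 4.07%, and 1.22% among genes averaging 1000 counts or more, of which 2 of the 5 globin genes were called. The median log2 ratio of the 8 members was -0.47 with a range of -0.77 to -0.08, beside 0.0072 over all genes tested and -0.05 over the abundant ones. The median was -0.39 with whole-count members alone, and also with genes that share reads taken as 1 unit. The called members again had divided reads: *hbbe1.1* ENSDARG00000089963 at 0.588 (0.565 to 0.612), *hbae1* ENSDARG00000089475 at 0.625 (0.571 to 0.685) and *hbbe1.2* at 0.658 (0.631 to 0.686). The intervals of *hbae1* ENSDARG00000089475 and *hbbe1.2* include the limit, and 2 members instead of 3 were called with libraries scaled by their total counts.

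The *hbbe1* sum had a ratio of 0.656 after HDE (0.642 to 0.671), and it was the 1 unit called with genes that share reads taken as 1 unit. This interval includes the 1.5-fold limit too. The pair of *hbae1* ENSDARG00000089475 and *si:ch211-5k11.2* was at 0.829 (0.790 to 0.869). Of the members with whole counts, *hbae3* had 9994 counts after HDE against 15385 without treatment (ratio 0.741, 0.723 to 0.760), and *hbbe3* had 4921 against 7103 (ratio 0.790, 0.762 to 0.820). The *hbbe2* counts were 225 against 354, a ratio of 0.725 (0.611 to 0.859). The *hbae1* gene ENSDARG00000089124 had 635 against 768 counts, and its ratio of 0.943 (0.848 to 1.05) has an interval that includes 1.

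**Figure D2:**
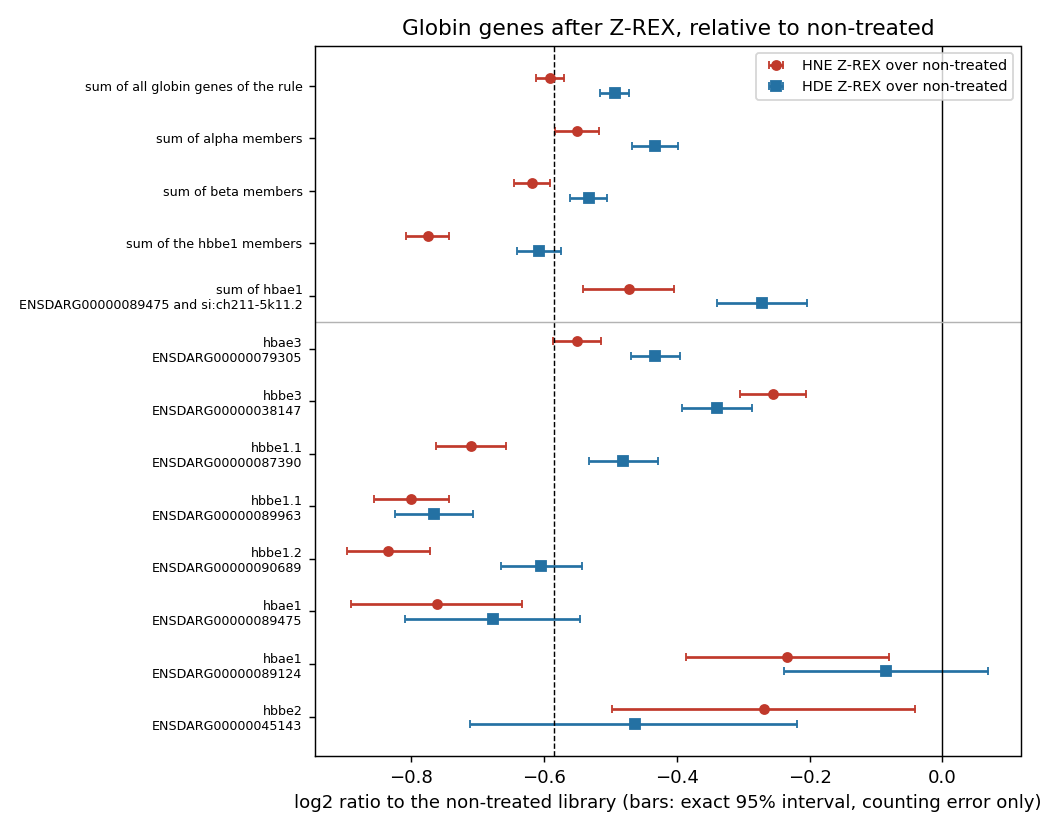
Log2 ratio of each Z-REX library to the non-treated library for 5 sums (top; all members, alpha, beta, *hbbe1*, and *hbae1* ENSDARG00000089475 with *si:ch211-5k11.2*) and for the 8 globin genes that passed the limit of 10 counts (bottom), with red circles for HNE and blue squares for HDE. Bars are exact 95% intervals for counting error only, and the dashed line is a 1.5-fold lower level. Each point lies left of 0, and the sum of the *hbbe1* members is at a ratio of 0.584 after HNE and 0.656 after HDE.

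Alpha and beta chains are needed in balance for the tetramer. The alpha sums here leave out *si:ch211-5k11.2*. The alpha members summed to 11836 counts after HNE, 11364 after HDE and 17501 without treatment, with ratios of 0.683 (0.667 to 0.699) and 0.741 (0.724 to 0.759). The beta members summed to 18123, 17012 and 28082 counts, with ratios of 0.652 (0.640 to 0.664) and 0.691 (0.678 to 0.705). Both sums were below their non-treated level in both Z-REX libraries.

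Within a library, alpha counts per beta count were 0.653 after HNE, 0.668 after HDE and 0.623 without treatment. This internal ratio needs no scaling between libraries. Relative to non-treated it was 1.05 after HNE (1.02 to 1.08, approximate log-normal interval) and 1.07 after HDE (1.04 to 1.1). With the whole-count members alone the direction turned round, since the *hbbe1* genes then leave the beta sum. On the FPKM scale the summed alpha level per summed beta level was 0.600, 0.620 and 0.580.

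The make-up of the beta counts differed between the libraries. The *hbbe1* genes gave 65.9% of the beta counts after HNE (65.2 to 66.6), 69.8% after HDE (69.1 to 70.4) and 73.4% without treatment (72.9 to 74.0), by exact Clopper-Pearson intervals. For *hbbe3* the shares were 32.5%, 28.9% and 25.3%, and for *hbbe2* 1.61%, 1.32% and 1.26%. The 3 libraries do not overlap in the intervals of the *hbbe1* share, and non-treated was the highest.

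Counts of the *hbbe1* genes per *hbbe3* count were 2.02 after HNE, 2.41 after HDE and 2.90 without treatment. Relative to non-treated this internal ratio was 0.697 after HNE (0.669 to 0.727, approximate) and 0.830 after HDE (0.796 to 0.867). The *hbbe2* to *hbbe3* ratio, between members with whole counts that lie in the same gene group, was 0.990 after HNE (0.845 to 1.16) and 0.917 after HDE (0.773 to 1.09). For *hbae3* per *hbbe3*, also whole counts, the values were 0.815 (0.781 to 0.85) and 0.938 (0.897 to 0.980).

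The alpha counts were mostly those of 1 gene in every library. The gene *hbae3* gave 87.9% of the counts of the 4 alpha members in each of the 3 libraries, with intervals that lie between 87.3% and 88.5%. The *hbae1* gene ENSDARG00000089475 gave 6.57%, 6.42% and 7.61% after HNE, after HDE and without treatment. For *hbae1* ENSDARG00000089124 the shares were 5.47%, 5.59% and 4.39%. These shares leave out *si:ch211-5k11.2*. With it in the alpha sum, *hbae3* held 74.1% after HNE (73.4 to 74.9), 73.2% after HDE (72.4 to 73.9) and 75.7% without treatment (75.1 to 76.2).

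**Figure D3:**
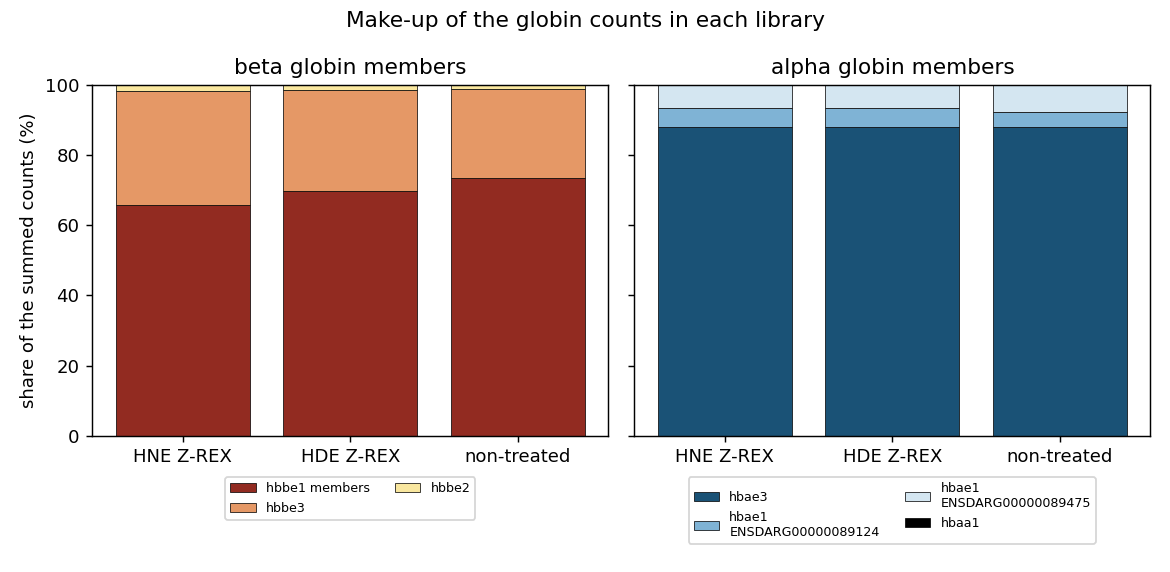
Share of the summed beta (left) and alpha (right) globin counts, in percent and not corrected for gene length, that each gene or gene group held in the HNE Z-REX, HDE Z-REX and non-treated libraries. The *hbbe1* part of the beta bar is 65.9%, 69.8% and 73.4% in these libraries, while *hbae3* holds 87.9% of each alpha bar, which leaves out *si:ch211-5k11.2*.

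The division of reads also differed between libraries. Of the *hbbe1* counts, ENSDARG00000087390 was given 39.3% after HNE, 41.0% after HDE and 37.5% without treatment, and ENSDARG00000089963 was given 33.3%, 30.3% and 33.8%. The share given to *hbbe1.2* was 27.5%, 28.7% and 28.6%. Of the pair with *si:ch211-5k11.2*, *hbae1* ENSDARG00000089475 was given 26.1%, 24.1% and 32.0%. How far these shares come from the division and how far from the genes themselves was not tested.

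HNE and HDE differ in the length of the carbon chain, and 0 of the 8 members differed by 1.5-fold between their libraries. This is close to the background, as 9.51% of all genes tested and 1.29% of those averaging 1000 counts or more did so in either direction. The median log2 ratio of HNE to HDE over the members was -0.10, with a range of -0.23 to 0.19. The globin sum had a ratio of 0.934 (0.919 to 0.95), HNE to HDE, so the interval for counting error lies below 1. The *hbbe1* sum was lower after HNE, at 0.890 (0.868 to 0.913), and so was *hbae3*, at 0.921 (0.896 to 0.947). For *hbbe3* the ratio was 1.06 (1.02 to 1.1), above 1. The interval included 1 for *hbbe2*, at 1.14 (0.958 to 1.37), and for *hbae1* ENSDARG00000089124, at 0.902 (0.807 to 1.01). Per *hbbe3* count, the *hbbe1* genes had 0.840 times as many counts after HNE as after HDE (0.802 to 0.879, approximate).

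The hemoglobin chain genes outside the choice by symbol included 3 that passed the limit of 10 counts. The largest, *si:ch211-5k11.2*, had 2197 counts after HNE, 2297 after HDE and 2836 without treatment, with ratios of 0.782 (0.739 to 0.827) and 0.924 (0.874 to 0.977). The gene listed as *HBZ* (ENSDARG00000045144, now *hbae4*) had 56, 46 and 79 counts, with ratios of 0.716 (0.499 to 1.02) and 0.664 (0.451 to 0.968). It was called after HDE, with an interval that includes the 1.5-fold limit. Of all genes tested, 4.07% were called lower after HDE. The gene listed as *hbz* (ENSDARG00000045142, now *hbae5*) had 33, 30 and 48 counts, with ratios of 0.694 (0.432 to 1.1) and 0.713 (0.436 to 1.15). All 3 were below their non-treated level in both libraries.

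Other genes of the red cell were set beside the globins. Of each list the 3 genes with the highest FPKM are named, and others named were chosen after their values were seen. For comparison with each list, 4.26% of all genes tested were called lower and 5.28% higher after HNE, and 4.07% and 6.46% after HDE. The list of red cell membrane and enzyme genes had 7 tested genes, of which 1 was called lower after HNE and 0 after HDE, with median log2 ratios of -0.21 and -0.20. The anion exchanger gene *slc4a1a* had 1642 counts after HNE, 1661 after HDE and 2172 without treatment, with ratios of 0.763 (0.715 to 0.814) and 0.872 (0.818 to 0.930). The ankyrin gene *ank1a* had ratios of 0.872 and 0.858. The Rh glycoprotein gene *rhag* had 1310, 1176 and 1250 counts and ratios of 1.06 (0.978 to 1.14) and 1.07 (0.990 to 1.16). Its FPKM did not follow these counts, at 54.5 after HNE, 38.9 after HDE and 32.2 without treatment, and why was not tested. The called gene was the carbonic anhydrase *cahz*, with 699, 633 and 1077 counts and ratios of 0.655 (0.595 to 0.721) and 0.671 (0.607 to 0.740). Both intervals include the 1.5-fold limit.

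The list of heme synthesis and erythroid iron genes had 14 tested genes, of which 0 were called lower in either library and 1 was called higher in both. This is close to the background, as 5.28% of all genes tested were called higher after HNE and 6.46% after HDE. The median log2 ratio of the list was 0.03 after HNE and -0.13 after HDE. The named genes were *urod*, an enzyme of heme synthesis (ratios 1.26 and 1.25), the iron transporter *slc11a2* (1.12 and 0.863) and the glutaredoxin *glrx5*, which serves iron-sulfur cluster assembly (1.04 and 0.974). The gene called higher was *slc25a38a*, a mitochondrial carrier, with 84 counts after HNE, 48 after HDE and 32 without treatment. Its ratios were 2.65 (1.74 to 4.12) after HNE and 1.71 (1.07 to 2.77) after HDE, and the HDE interval includes the 1.5-fold limit. The erythroid heme synthesis enzyme *alas2* had 852, 698 and 880 counts, with ratios of 0.977 (0.889 to 1.08) and 0.905 (0.818 to 1.00).

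The list of erythroid transcription factors and the erythropoietin receptor had 10 tested genes, of which 1 was called lower in each library, with a median log2 ratio of -0.21 for HNE and -0.13 for HDE. The ratios were 0.946 and 1.04 for *klf17*, 0.859 and 0.811 for *tal1* and 0.809 and 1.00 for *lmo2*, which act in blood cell formation. The called gene was *klf1*, a regulator of globin genes in mammals, with 42, 40 and 71 counts after HNE, after HDE and without treatment. Its ratios were 0.597 (0.398 to 0.887) and 0.643 (0.425 to 0.960), with intervals that both include the 1.5-fold limit. The shares of all genes tested called lower were 4.26% after HNE and 4.07% after HDE.

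Set against red cell genes within each library, globin counts per *alas2* count were 35.2 after HNE, 40.7 after HDE and 51.8 without treatment, which is 0.679 (0.617 to 0.747, approximate) and 0.785 (0.710 to 0.868) of the non-treated value. Per *rhag* count the values were 0.627 (0.580 to 0.679) and 0.662 (0.610 to 0.718) of non-treated, though *rhag* FPKM did not follow its counts. Per *slc4a1a* count they were 0.869 (0.814 to 0.928) and 0.814 (0.762 to 0.869). The remaining genes of the membrane and enzyme list were added as denominators after these values were seen. Over all 7 genes of that list, globin counts per count of the gene were below the non-treated value for 6 after HNE and 5 after HDE. The intervals lay wholly below 1 for 5 in each. Any gene with a ratio above that of the globin sum, 0.664 after HNE and 0.710 after HDE, gives such a value below 1. Most genes do, as only 49.4% of all genes tested had a log2 ratio below 0 after HNE and 49.0% after HDE. At least 1.5-fold lower were 4.26% after HNE and 4.07% after HDE. That limit is close to the HNE ratio of the globin sum but below its HDE ratio. The share of genes below the ratio of the globin sum itself was not computed. The tally is therefore no result about this list. Per *cahz* count the values were 1.01 (0.920 to 1.12) after HNE and 1.06 (0.959 to 1.17) after HDE, and per *epb41b* count, an erythroid membrane protein, 0.948 (0.809 to 1.11) and 1.05 (0.890 to 1.24), all with intervals that include 1.

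**Figure D4:**
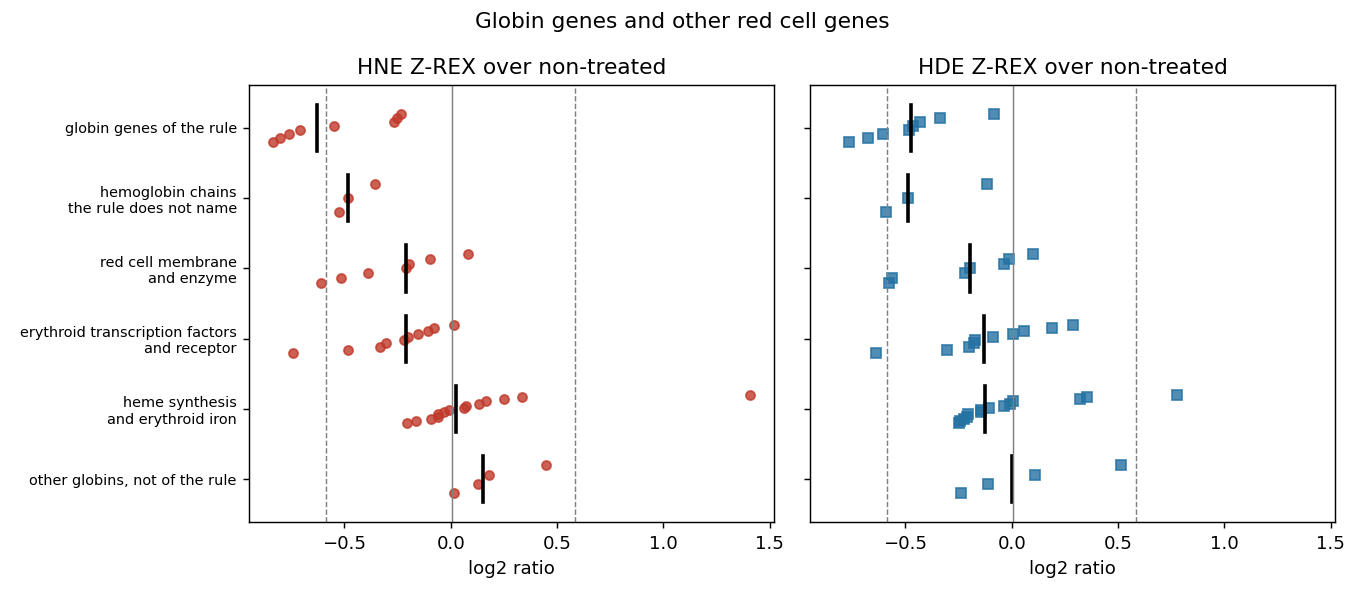
Log2 ratios to the non-treated library for HNE Z-REX (left) and HDE Z-REX (right), 1 point per gene that passed the limit of 10 counts, with lists down the page, black bars at each list's median and dashed lines at 1.5-fold. The globin medians are -0.63 and -0.47, while those of heme synthesis and erythroid iron genes are 0.03 and -0.13. Without the genes whose reads were divided, the globin medians are -0.26 and -0.39.

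Globins outside the hemoglobin families were not called in either library. The list had 4 tested genes, with a median log2 ratio of 0.15 after HNE and -0.00085 after HDE. Myoglobin, *mb*, had 96 counts after HNE, 89 after HDE and 71 without treatment. Its ratios were 1.37 (0.994 to 1.88) and 1.43 (1.04 to 1.98), short of 1.5-fold, and the HDE interval lies above 1. The cytoglobin gene *cygb1* had 879, 742 and 784 counts and ratios of 1.13 and 1.08, and *cygb2* had 40, 30 and 37 counts.

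Markers of other cell types also differed between the libraries. Beside the calls below, 4.26% of all genes tested were called lower after HNE and 4.07% after HDE. The summed level of 4 red cell markers was 185 CPM (TMM-normalised counts scaled to 1000000 per library) after HNE, 196 after HDE and 236 without treatment, and 1 of the 4 was called after HNE. The called gene was *cahz*, already described above, and *slc4a1a* had ratios of 0.763 and 0.872. The intervals of the other markers include 1 in both libraries. Those were *alas2*, at 0.977 and 0.905, and *gata1a*, at 0.927 (0.605 to 1.42) after HNE and 1.14 (0.752 to 1.73) after HDE. The 3 neutrophil markers summed to 36.6, 63.3 and 70.1 CPM, with all 3 called lower after HNE and 0 after HDE. The 3 macrophage markers summed to 4.97, 11.9 and 13.8 CPM, with 2 called after HNE. The 3 lens markers summed to 217, 261 and 318, with 2 called after HNE. The 4 endothelial markers, at 101, 114 and 115 CPM, had none called, and of the 3 fast muscle markers, at 10148, 9285 and 11204, 1 was called after HDE. The 3 yolk and liver markers summed to 2991, 2478 and 3078, nearly all from *apoa1b*, the 1 gene of the list that passed the limit of 10 counts, with *fabp10a* at 0 counts after HDE and without treatment. The 3 thrombocyte markers summed to 121, 142 and 119, nearly all from *thbs1b*, again the 1 gene that passed, while *itga2b* and *mpl* had 13 counts or fewer in each library. The part of these differences in the globin result was not tested.

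The 5 genes whose ratios lay nearest to those of the globin sum were sought among 2855 genes averaging 1000 counts or more that are no members. Likeness was the distance between the pair of log2 ratios, over 3 libraries, so it describes these libraries only. The nearest was *apoeb*, an apolipoprotein E gene, with 24890 counts after HNE, 22418 after HDE and 37922 without treatment and log2 ratios of -0.59 and -0.57. It was followed by *CD68* (log2 ratios -0.55 and -0.57), *pgm1* (-0.56 and -0.41) and the mitochondrially encoded *mt-nd6* (-0.53 and -0.56) and *mt-atp6* (-0.47 and -0.46).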

How the data were processed

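Whole-embryo poly(A) RNA (500 ng total RNA input) was sequenced as 81-nt single-end reads, 1 library per condition. By the study's methods and the submitters' processing notes, the authors trimmed reads with cutadapt 1.8 and mapped them with TopHat2 2.1 to GRCz10. The authors deposited estimated counts per gene, not scaled between libraries, and FPKM values made with Cufflinks 2.2, and the tool that divided reads between genes is not given in the sources used here. The deposited counts were rounded, scaled with TMM (edgeR 4.0.16 in R 4.3.3) on the 18563 genes averaging 10 counts or more, and compared as ratios with exact Clopper-Pearson intervals (scipy 1.17.1, 95%). The ratio step was tested on simulated counts that held counting error only, so that test does not bear on spread between embryos or libraries. Intervals of ratios of ratios are approximate. Figures used matplotlib 3.10.9. Depth, 15084294 to 17996111 counts, sets the precision given by the intervals.

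Named are all members, the 3 genes of each list with the highest mean FPKM and the 5 genes nearest in pattern, and further genes were chosen after their values were seen. Members and lists were chosen with earlier results of these data known. Among the list genes, *epb42* and *hmox1b* were not found under these names. Sequences were not used here, and of genome positions only the order of the globin genes was used. Alternatives were DESeq2 1.42.0 size factors, total counts, unrounded counts, FPKM with a pseudocount, other filters, folds and sets of members.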

Additional observations from a re-analysis of the deposited data

How the results depend on the processing

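No paired analysis was possible because each condition has 1 library. The limit of 2-fold left 0 members called after HNE and 0 after HDE, and 1.2-fold gave 7 after HDE. Taking genes that share reads as 1 unit, chosen after seeing the data, left 1 called after HNE and 1 after HDE, with median log2 ratios of -0.37 and -0.39. Shares of all genes were not computed at 2-fold or 1.2-fold, nor for such units, so these counts have no background beside them. The members with whole counts alone had medians of -0.26 (HNE) and -0.39 (HDE), and log2 ratios of the sum of -0.44, -0.39 and, HNE to HDE, -0.0483. With these members the alpha to beta log2 ratio reversed, to -0.28 after HNE and -0.0694 after HDE, and was -0.21 for HNE to HDE. This follows from dropping the *hbbe1* genes. Without a filter the median after HNE was -0.71, since *hbaa1* enters. Without *hbae3* the sum was at -0.61 after HNE and -0.53 after HDE, and with the 6 chains outside the choice by symbol, added after seeing the data, at -0.47 after HDE. Total counts, and total counts without the globin genes, moved the HDE median to -0.41 and the HDE sum to -0.43. Leaving out the 20 most abundant genes put the HDE sum at -0.44. Under these 3 scalings the HNE to HDE log2 ratio of the sum was -0.15. FPKM with a pseudocount of 0.1 or 1 gave -0.52 for the HDE sum. The globin share of counts without the 20 most abundant genes was 0.194% after HNE, 0.215% after HDE and 0.291% without treatment. The other 76 values for calls, medians, sums, shares and the alpha to beta ratio kept their direction and lay within the interval or within 1.5 times the count. For the ratios of single members, 168 alternatives lay within the interval and 21 lay outside it. An example is *hbbe3* after HDE, at -0.27 with total counts against -0.34 with TMM. Depth limits *hbaa1*, *hbbe2* and the chains under 100 counts.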

Other observations

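Heme handling genes were described for the same libraries. Of 8 tested genes, 1 was called lower and 1 higher after HNE, and 1 lower and 0 higher after HDE, with median log2 ratios of 0.17 and -0.28. Among all genes tested, 4.26% were called lower and 5.28% higher after HNE, and 4.07% and 6.46% after HDE. The haptoglobin gene *hp* (ENSDARG00000095807), whose protein binds free hemoglobin, had 264 counts after HNE, 259 after HDE and 409 without treatment, with ratios of 0.652 (0.556 to 0.763) and 0.722 (0.616 to 0.846). It was the gene called lower after HNE, and that interval includes the 1.5-fold limit. A second gene named *hp*, ENSDARG00000051890, had 24, 19 and 30 counts in these libraries and was not called. Its ratios were 0.808 (0.452 to 1.43) and 0.723 (0.384 to 1.33). The gene called lower after HDE was *hpx*, hemopexin, chosen after its values were seen, with 14 counts after HNE, 6 after HDE and 11 without treatment and an HDE ratio of 0.622 (0.189 to 1.84) whose interval includes 1. The biliverdin reductase gene *blvrb* had ratios of 1.03 and 0.883, and the iron exporter gene *slc40a1* ratios of 1.12 and 1.02. The gene called higher after HNE was the biliverdin reductase *blvra*, chosen after its values were seen, with 166, 123 and 111 counts after HNE, after HDE and without treatment. Its ratio after HNE was 1.51 (1.18 to 1.94), with an interval that includes the 1.5-fold limit.

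The ratio of deposited counts to FPKM was compared between libraries for the globin genes. This ratio need not be constant for a gene, so a shift is no error by itself. Relative to the non-treated library and to the median over all genes tested, the ratio was 1.00 in both Z-REX libraries for 6 of the 9 globin genes. For *hbbe1.1* ENSDARG00000089963 it was 1.07 after HNE and 1.09 after HDE, and for *hbae3*, which has whole counts, 1.02 in both. For *hbae1* ENSDARG00000089475 it was 1.01 and 0.979. This check covered the globin genes only. The log2 ratio of *hbbe1.1* ENSDARG00000089963 was -0.90 on the FPKM scale in both Z-REX libraries (pseudocount of 0.1), against -0.80 after HNE and -0.77 after HDE on the count scale. What sets these genes apart was not tested.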
